A study of Mus musculus with 8 samples.

Results

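The annexins other than Anxa2 were examined in gastrocnemius, a calf muscle made mostly of fast fibres, of mice with and without Anxa2. The 8 genes Anxa1, Anxa3, Anxa4, Anxa5, Anxa6, Anxa7, Anxa8 and Anxa11 were chosen by their Ensembl IDs, not by their values, and 7 of them have a row among the 17352 genes of the value table. The row of Anxa11 was not analysed here. The series holds 4 Anxa2 knockout mice and 4 wild-type mice, and the knockout was set against the wild type. All 8 were 24 weeks old and of C57BL/6 background, each gave 1 array, and the labels number the animals of a genotype as biological replicates 1 to 4. The question was whether a related annexin stood at another level in muscle without Anxa2. The labels used here state neither how the allele was made nor the sex of the animals.

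Annexins are calcium-dependent proteins that bind acidic phospholipids of membranes through a conserved core of repeats, and their N-terminal tails differ and bind different partners. When calcium enters a torn muscle fibre, several annexins gather at the wound and help to form the cap that seals it. Annexin A2 is known for this, in part together with the S100 protein S100a10 and with dysferlin. Because the cores are alike, a related annexin can bind the same kind of membrane, and this is the reason to look at the relatives when Anxa2 is missing. Annexins are also made by fibroblasts, endothelium and white blood cells, all of which a piece of whole muscle contains. In RNA of whole muscle, fewer cells of a type and less RNA per cell cannot be told apart.

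Before the values, the sequences upstream of 3 of the genes are shown, because the deviations of Anxa1 and Anxa5 from their genotype means were alike in the results below while those of Anxa7 were not. RefSeq sequences of the GRCm38.p6 build were matched by symbol for 6 of the 8 genes. Anxa3, whose deviations were like those of Anxa1 and Anxa5, and Anxa6 had no match. Each line gives the 250 bases before the outermost annotated start of the gene, 5′ to 3′ on the strand of the gene, and capitals mark the motifs found.
Anxa1 (chr19:20390672-20390921, minus strand): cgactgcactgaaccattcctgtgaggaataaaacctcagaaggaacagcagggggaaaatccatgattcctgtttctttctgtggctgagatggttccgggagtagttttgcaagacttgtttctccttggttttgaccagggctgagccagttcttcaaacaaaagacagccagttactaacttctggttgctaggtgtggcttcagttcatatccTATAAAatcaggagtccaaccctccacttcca
Anxa5 (chr3:36475888-36476137, minus strand): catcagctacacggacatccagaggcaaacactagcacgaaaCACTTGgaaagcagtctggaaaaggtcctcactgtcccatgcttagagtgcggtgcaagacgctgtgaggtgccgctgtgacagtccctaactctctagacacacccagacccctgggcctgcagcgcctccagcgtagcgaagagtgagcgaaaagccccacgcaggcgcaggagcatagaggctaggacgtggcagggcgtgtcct
Anxa7 (chr14:20480134-20480383, minus strand): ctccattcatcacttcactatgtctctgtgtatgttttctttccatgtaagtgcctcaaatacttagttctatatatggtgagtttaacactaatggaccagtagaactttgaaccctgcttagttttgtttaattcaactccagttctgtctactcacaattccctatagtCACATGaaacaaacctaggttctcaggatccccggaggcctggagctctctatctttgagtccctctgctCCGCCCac

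The motifs searched, on both strands, were the TATA box TATAAA, the GC box GGGCGG, the CCAAT box CCAAT and the E-box CANNTG, none of which overlapped another here. Anxa1 held a TATA box whose first base lies at position -32 from the start, a motif that 12.4% of 32851 upstream windows of the same length hold. Anxa5 held an E-box at position -208, which 66.2% of windows hold. Anxa7 held an E-box at position -78 and a GC box at position -8, on the opposite strand, and 32.7% of windows hold a GC box. The CCAAT box, present in 33.8% of windows, was found in none of the 3. The GC content was 46.0% for Anxa1, 58.8% for Anxa5 and 42.4% for Anxa7, against a median of 52.4% over all windows. Anxa1 and Anxa5 had none of these motifs in common. These matches are descriptions of the letters in the windows, and whether they bear on the values was not tested.

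Values are log2 expression values made by robust multi-array averaging (RMA), and a difference of 1 on this scale is 2-fold. Over all arrays and rows they ran from 1.94 to 14.6. Array medians lay between 4.95 and 5.09. Wild type replicate 4 stood apart, with a mean correlation across rows of 0.978 with the other arrays, against 0.988 to 0.991 for the remaining 7, and with a score of 46.5 on the first principal component. Knockout replicate 2 had the next highest score, 13.8, but did not stand apart in size, since knockout replicate 4 had a score of -15.5. No row is paired with the symbol Anxa2 here, so the knockout itself is taken from the labels and was not examined in the values. Under some alternatives treated at the end, the genotype test called 1 row, ENSMUSG00000032231_at, and whether it belongs to Anxa2 was not checked. Markers of the tissue and of cell types were not analysed, because the row IDs are not paired with gene symbols.

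No annexin passed the test in muscle without Anxa2. A linear model in limma was fitted to all rows, with Benjamini-Hochberg adjustment over all of them and a threshold of 0.05. At that threshold 0 of the 7 annexins were higher and 0 were lower, against 0% of all rows, and the adjusted p of each annexin was 1.00. At an unadjusted limma p under 0.05 the count was also 0 of 7, against 1.55% of rows, 127 higher and 142 lower. The genotypes overlapped in all 7, leaving 0 without overlap, against 1.31% of rows without overlap. The means of Anxa5, Anxa6 and Anxa8 were higher in the knockout and those of Anxa1, Anxa3, Anxa4 and Anxa7 lower. The median difference over the 7 was -0.023, beside -0.0085 over all rows. The median size of the difference, sign aside, was 0.18 for the annexins and 0.080 for all rows.

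**Figure D1:**
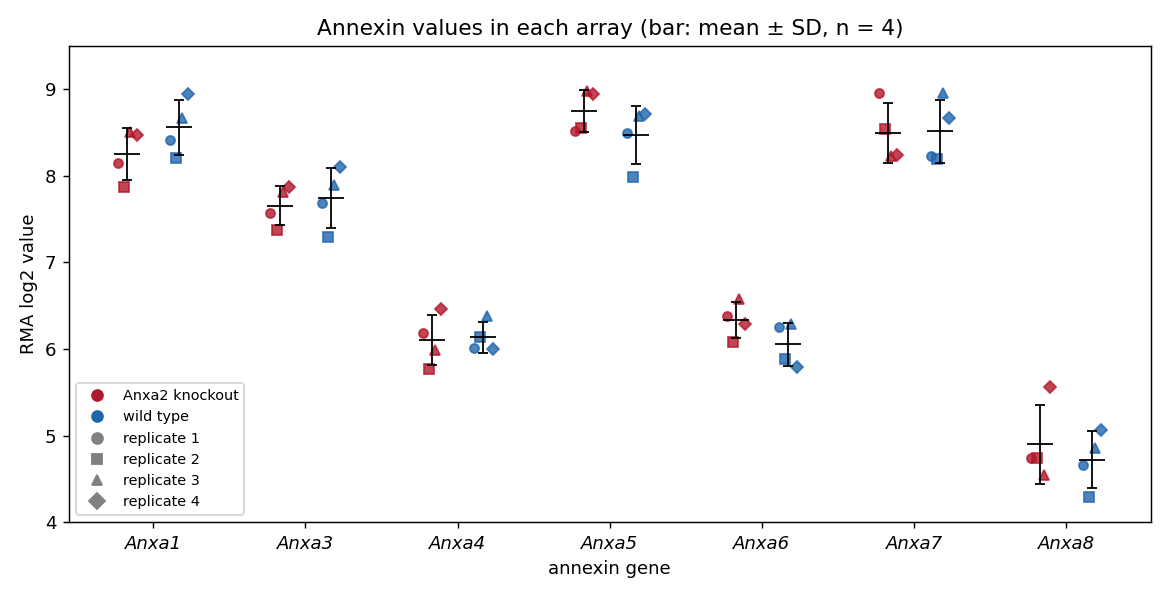
RMA log2 value of each annexin (vertical axis) in each array, Anxa2 knockout in red to the left of wild type in blue, marker shapes for replicate numbers, and black bars for the mean ± SD of 4 arrays. For every gene the arrays of the genotypes overlap, and Anxa8 lies lowest on the scale, around a mean of 4.81.

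Anxa6 (ENSMUSG00000018340_at) encodes the largest annexin, with a repeated core, and is known in mice for its part in the repair cap of muscle fibres and as a modifier of muscular dystrophy. It had the smallest p of the 7. Its log2 values were 6.39, 6.08, 6.58 and 6.29 in knockout replicates 1 to 4, against 6.25, 5.88, 6.29 and 5.80 in wild type replicates 1 to 4. The highest array was a knockout and the lowest a wild type, but knockout replicate 2 lay below wild type replicates 1 and 3. The means were 6.33 ± 0.21 in knockout and 6.05 ± 0.25 in wild type (SD, n = 4 each). The difference of 0.28 (SE 0.15, 95% interval -0.05 to 0.61), 1.21-fold, had a limma p of 0.088 before and 1.00 after adjustment. The exact two-sided permutation test over the 70 assignments of arrays gave a p of 0.14, where 0.029 is the smallest it can give.

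Anxa5 (ENSMUSG00000027712_at) encodes annexin A5, which forms lattices on membranes that expose phosphatidylserine and is used as a probe of dying cells. Its log2 values were 8.52, 8.55, 8.98 and 8.94 in knockout replicates 1 to 4, against 8.49, 7.99, 8.69 and 8.71 in wild type replicates 1 to 4. Knockout replicates 3 and 4 were the highest of all 8 arrays and wild type replicate 2 the lowest, while knockout replicates 1 and 2 lay between the wild-type arrays. The means were 8.75 ± 0.24 in knockout and 8.47 ± 0.34 in wild type (SD, n = 4 each). The difference was 0.28 (SE 0.18, 95% interval -0.12 to 0.67), 1.21-fold, with a limma adjusted p of 1.00 and an exact permutation p of 0.23. Without wild type replicate 2 it was 0.12.

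Anxa1 (ENSMUSG00000024659_at) encodes annexin A1, a protein induced by glucocorticoids that dampens inflammation through formyl peptide receptors and that also takes part in membrane repair. Its log2 values were 8.15, 7.87, 8.50 and 8.47 in knockout replicates 1 to 4, against 8.42, 8.20, 8.67 and 8.94 in wild type replicates 1 to 4. The lowest arrays were knockouts and the highest were wild types, but knockout replicates 3 and 4 lay above wild type replicates 1 and 2. The means were 8.25 ± 0.30 in knockout and 8.56 ± 0.32 in wild type (SD, n = 4 each). The difference of -0.31 (SE 0.19, 95% interval -0.72 to 0.10), 1.24-fold lower, had an adjusted p of 1.00 in limma and a p of 0.23 in the exact permutation test. It was -0.18 without wild type replicate 4 and -0.058 when knockout replicate 2 was left out as well. Those were the highest wild-type array and the lowest knockout array for this gene, so that leaving them out could only bring the means closer.

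Anxa3 (ENSMUSG00000029484_at) encodes an annexin that is abundant in neutrophils in humans. Its log2 values were 7.57, 7.37, 7.81 and 7.87 in knockout replicates 1 to 4, against 7.68, 7.29, 7.90 and 8.10 in wild type replicates 1 to 4. Both the highest and the lowest array were wild types, so that the knockout arrays lay within the wild-type range. The means were 7.65 ± 0.23 in knockout and 7.74 ± 0.34 in wild type (SD, n = 4 each). The difference was -0.089 (SE 0.18, 95% interval -0.48 to 0.31), with a limma adjusted p of 1.00. It was 0.029 without wild type replicate 4 and 0.0042 without knockout replicate 2, so that its sign rested on single arrays.

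Anxa7 (ENSMUSG00000021814_at) encodes annexin A7, or synexin, which aggregates membranes in the presence of calcium and has a splice form of striated muscle. Its log2 values were 8.96, 8.54, 8.23 and 8.24 in knockout replicates 1 to 4, against 8.23, 8.20, 8.96 and 8.67 in wild type replicates 1 to 4. Arrays near 8.2 and arrays above 8.5 occurred in both genotypes. The means were 8.49 ± 0.34 in knockout and 8.52 ± 0.36 in wild type (SD, n = 4 each). The difference was -0.023 (SE 0.21, 95% interval -0.49 to 0.44), and it took either sign, from -0.18 to 0.12, as single arrays were left out.

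Anxa4 (ENSMUSG00000029994_at) encodes an annexin known mainly from epithelia. Its log2 values were 6.19, 5.77, 5.99 and 6.46 in knockout replicates 1 to 4, against 6.01, 6.14, 6.39 and 6.00 in wild type replicates 1 to 4. Here both extremes were knockouts. The means were 6.10 ± 0.29 in knockout and 6.13 ± 0.18 in wild type (SD, n = 4 each). The difference was -0.031 (SE 0.15, 95% interval -0.37 to 0.31), and it lay between -0.15 and 0.079 as single arrays were left out.

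Anxa8 (ENSMUSG00000021950_at), another annexin of epithelia, was the only one of the 7 whose mean lay below the median row of the table, with 46.7% of rows lower. The corresponding share was between 67.1% and 91.9% for the other 6. These shares place a row on the scale of the table and do not rank amounts of RNA between genes, since probes differ in brightness, and no detection call shows which rows are above background. The log2 values of Anxa8 were 4.74, 4.74, 4.54 and 5.56 in knockout replicates 1 to 4, against 4.66, 4.30, 4.86 and 5.07 in wild type replicates 1 to 4. Knockout replicate 4 was the highest of all arrays, and the other knockout arrays lay among the wild types. The means were 4.90 ± 0.45 in knockout and 4.72 ± 0.33 in wild type (SD, n = 4 each). The difference was 0.18 (SE 0.23, 95% interval -0.34 to 0.69), and it was -0.045 without knockout replicate 4, so that its sign rested on that array. The exact permutation p of Anxa3, Anxa4, Anxa7 and Anxa8 lay between 0.60 and 0.97.

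The intervals show which sizes of change these arrays leave possible. All 7 annexins had a 95% interval that stayed inside 2-fold in both directions, as 98.4% of all rows did. A rise of 1.5-fold lay inside the interval for 3 annexins, whose upper limits were 1.60-fold for Anxa5, 1.53-fold for Anxa6 and 1.61-fold for Anxa8. For Anxa1, Anxa3, Anxa4 and Anxa7 the upper limits were 1.07-fold, 1.24-fold, 1.24-fold and 1.36-fold. A fall of 1.5-fold lay inside the interval for Anxa1 alone, whose lower limit was a level 1.65-fold lower. These intervals carry no adjustment for multiple rows, and RMA compresses differences near the background, which touches Anxa8 most.

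**Figure D2:**
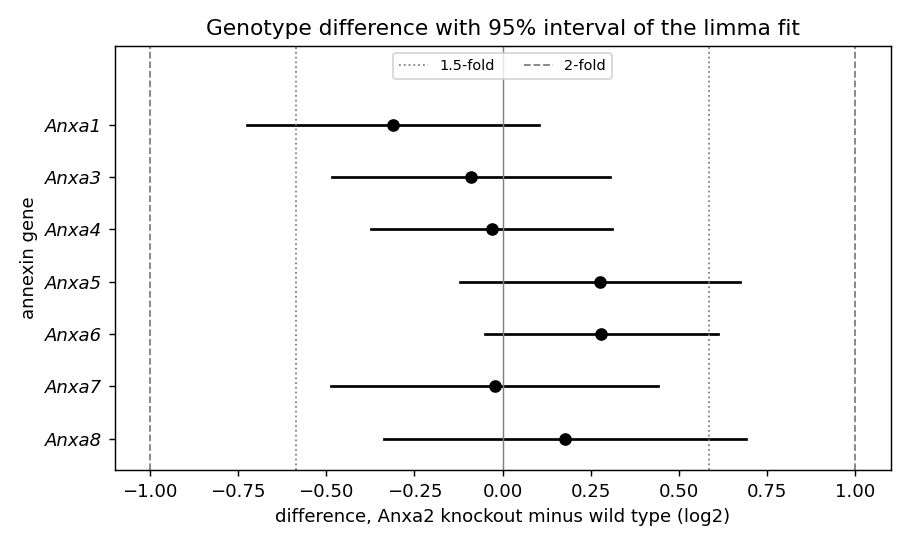
Difference of Anxa2 knockout minus wild type on the log2 scale (horizontal axis) for each annexin, with points for the estimate and lines for the 95% interval of the limma fit over 8 arrays. Dotted and dashed lines mark 1.5-fold and 2-fold, and all 7 intervals cross 0 and stay inside the 2-fold lines.

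Within a genotype, Anxa1, Anxa3 and Anxa5 varied together from animal to animal. In wild type the order of the replicates from high to low was 4, 3, 1 and 2 for each of these 3 genes and for Anxa8, which makes 4 of the 7 annexins, against 9.7% of all rows. In the knockout, replicates 3 and 4 were the upper pair of arrays and replicates 1 and 2 the lower pair for Anxa1, Anxa3 and Anxa5. For Anxa8 the knockout order was 4, 2, 1 and 3. Knockout replicates 3 and 4 are also high in ENSMUSG00000086503_at, a row treated below, while wild type replicates 3 and 4 are low in it. When the mean of its genotype was taken from each value, the deviations correlated at 0.97 between Anxa1 and Anxa3, at 0.94 between Anxa3 and Anxa5 and at 0.89 between Anxa1 and Anxa5, over 8 arrays that share array, RNA extraction and normalization. These 3 of the 21 pairs of annexins lay above 0.8, as did 4.69% of all pairs of rows, and they share the same 3 genes. Anxa7 correlated at 0.22 or less with each other annexin in this way.

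Over the uncorrected values of the 8 arrays, Anxa1 and Anxa3 gave a Pearson r of 0.91 (exact permutation p = 0.0022, Benjamini-Hochberg 0.046 over the 21 pairs) and a Spearman rho of 0.90 (exact permutation p = 0.0046, adjusted 0.096). Without the 2 arrays farthest from the median of Anxa1 the r was 0.85, and without wild type replicate 4 it was 0.86. Of all rows, 34 were more alike to Anxa3, by their r, than Anxa1 was, and 29 were more alike to Anxa1 than Anxa3 was. Anxa3 and Anxa5 gave an r of 0.73 (exact permutation p = 0.034, adjusted 0.36) and a rho of 0.69 (exact permutation p = 0.069, adjusted 0.49), and the r was 0.45 without the 2 arrays farthest from the median of Anxa3, so that it rested on those arrays. Without wild type replicate 4 it was 0.82. Of all rows, 759 were more alike to Anxa3 than Anxa5 was, and 341 were more alike to Anxa5 than Anxa3 was. Anxa1 and Anxa5 gave an r of only 0.43 (exact permutation p = 0.28, adjusted 0.85) and a rho of 0.60 (exact permutation p = 0.13, adjusted 0.56), with the knockout mean below the wild-type mean for Anxa1 and above it for Anxa5. Here 3774 rows of the table were more alike to Anxa1 than Anxa5 was, and 2295 were more alike to Anxa5 than Anxa1 was. Among the 13014 rows whose mean level lies above the 25th percentile, the most similar row of each annexin correlated with it at between 0.95 and 0.99, and none of these rows is paired with a symbol here.

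**Figure D3:**
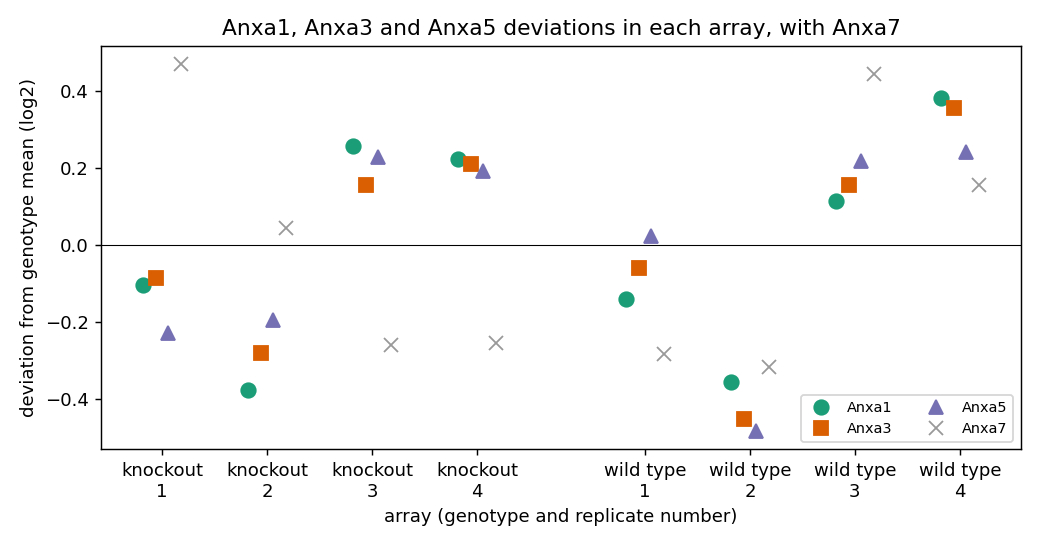
Deviation of Anxa1, Anxa3, Anxa5 and Anxa7 from the mean of their genotype on the log2 scale (vertical axis) in each array, Anxa2 knockout on the left and wild type on the right. Anxa1, Anxa3 and Anxa5 lie close to each other and above 0 in replicates 3 and 4 of both genotypes, while Anxa7 lies apart, above 0 in knockout replicates 1 and 2 and in wild type replicates 3 and 4.

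Taking 1 annexin from another within an array removes what they share in that animal, and on this measure the balance of Anxa5 to Anxa1 stood apart between the genotypes. Anxa5 minus Anxa1 was 0.38, 0.68, 0.47 and 0.47 on the log2 scale in knockout replicates 1 to 4, against 0.08, -0.21, 0.02 and -0.23 in wild type replicates 1 to 4. Every knockout array lay above every wild-type array. The means were 0.50 ± 0.13 in knockout and -0.09 ± 0.16 in wild type (SD, n = 4 each), a shift of 0.59 towards Anxa5. The value itself has no meaning as a ratio of RNA amounts, since the probes differ, and only the shift between genotypes can be read.

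The same held for Anxa5 minus Anxa3, at 1.09 ± 0.11 in knockout and 0.73 ± 0.09 in wild type, and for Anxa3 minus Anxa1, at -0.59 ± 0.08 in knockout and -0.81 ± 0.08 in wild type (SD, n = 4 each). These 3 of the 21 pairs of annexins had no overlap between the genotypes, and all 3 come from the same 3 genes, so they are not separate observations. Among all pairs of rows in the table, whether or not their deviations were alike, 1.48% had no overlap. The 3 pairs are also those whose deviations correlated above 0.8, so this share is not that of pairs as alike. These pairs were singled out after their values were seen, so no test is given for them.

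**Figure D4:**
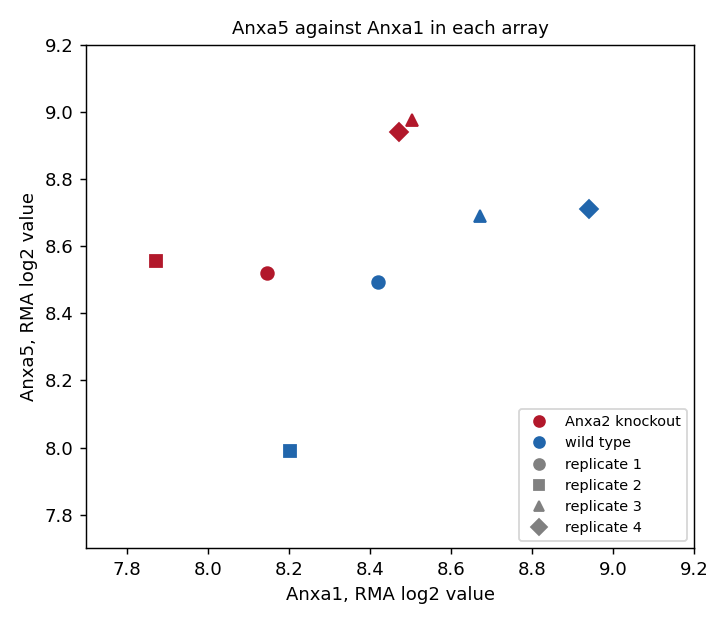
RMA log2 value of Anxa5 (vertical axis) against that of Anxa1 (horizontal axis), 1 point for each array, with Anxa2 knockout in red, wild type in blue and marker shapes for replicate numbers. In both genotypes the genes run upwards together, and each knockout point lies above and to the left of the band of wild-type points, which is the shift of 0.59.

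A division of the samples crossed the genotypes and was marked by the row ENSMUSG00000086503_at. This row was high in knockout replicates 3 and 4 (8.98 and 9.64) and wild type replicates 1 and 2 (9.26 and 9.13), and low in knockout replicates 1 and 2 (3.64 and 4.01) and wild type replicates 3 and 4 (3.56 and 4.07). The labels name no factor that corresponds to it, and they do not state the sex of the animals. The row is not paired with a symbol here, and whether the division is one of sex was not tested. Anxa7 was the 1 annexin of 7 without overlap on this division, with values of 8.54 to 8.96 in the 4 arrays low in that row and 8.20 to 8.24 in the 4 arrays high in it. Of all rows 7.32% had no overlap, so that 1 of 7 is near the background and is not a result about Anxa7.

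Within each side of this division 2 knockout arrays stood against 2 wild-type arrays, and the genotype difference had opposite signs on the sides in 6 of the 7 annexins. The same was so for 52.5% of all rows. For Anxa1 the difference was -0.80 among arrays low in ENSMUSG00000086503_at and 0.18 among those high in it. For Anxa3 these values were -0.53 and 0.35, for Anxa5 -0.16 and 0.72, for Anxa8 -0.22 and 0.58, for Anxa4 -0.21 and 0.15, and for Anxa7 -0.065 and 0.020. Anxa6 was higher in the knockout on both sides, by 0.19 and 0.37. Wild type replicate 4, which stood apart, and knockout replicate 2, which had the next highest score on the first principal component, both lay on the low side. Without them 1 array of each genotype remained there, and the difference on that side was -0.53 for Anxa1 and -0.33 for Anxa3. With the division as a term in the limma fit, 0 of the 7 annexins passed the threshold. With 2 arrays of a genotype on each side, whether the genotype difference depends on the side was not tested.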

How the data were processed

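Total RNA of gastrocnemius was labelled by 3′-primed amplification and hybridised, 1 array for each of 8 animals, per the labels' protocols. The deposited values are log2 values that the authors made with RMA in R 3.1.2, per the submitters' processing notes. The table has 17352 rows, 1 per Ensembl gene ID, and how probes were assigned to genes is not stated in the labels used here. The name table (GRCm38.p6) holds 49997 genes and 0 Ensembl IDs, so 0 rows were matched. Symbols of the 8 annexins came with the list of members, and lists of annexin partners, membrane repair genes and cell markers were not analysed.

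Knockout was compared with wild type in limma 3.58.1 (R 4.3.3) with genotype as the only term, default empirical Bayes moderation, two-sided tests and p-values adjusted by Benjamini-Hochberg across the whole table, with no low-value filter. The script was tested on simulated data. Exact permutation tests used scipy 1.17.1 and figures matplotlib 3.10.9. Named were the 8 annexins and, where paired with a symbol, Anxa2, list genes and the row most alike to each annexin. The members, lists and the division by ENSMUSG00000086503_at were chosen with earlier results of these data known. Alternatives were a replicate block, level filters at the 25th and 50th percentile, moderation with a trend, array weights, 3 rescalings, a block for the division, leaving out arrays and an adjusted p of 0.10. The number of arrays limits the precision. Replicates are separate animals by their labels.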

Additional observations from a re-analysis of the deposited data

How the results depend on the processing

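In all 18 alternative fits, and at an adjusted p of 0.10, 0 of the 7 annexins passed the threshold, and the lowest adjusted p of any annexin was 0.94. The lowest unadjusted p was 0.023, for Anxa1 with the replicate block, with a difference of -0.31. Same-numbered arrays gave correlations of their deviations of -0.072, -0.25, 0.18 and -0.24 over all rows, so that the numbers were not taken to pair the animals. Over all rows the count past the threshold was 0, and it was 1 with the replicate block, array weights, median centring, quantile normalization, cyclic loess and an adjusted p of 0.10. The row was ENSMUSG00000032231_at each time, which is none of the 7. It is not paired with a symbol here, and whether it is the row of Anxa2 was not checked. The count was 0 each time an array was left out.

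Of the 125 differences of single annexins under alternatives, 110 kept their sign and 15 turned it. The 110 include fits that could not turn a sign, because they leave the difference itself unchanged. These are the replicate block, the level filters, moderation with a trend and the block for the division. With array weights the difference was 0.048 for Anxa3 and 0.12 for Anxa7. Without wild type replicate 4 and knockout replicate 2 together it was 0.12 for Anxa3, 0.034 for Anxa4 and 0.014 for Anxa7. Fits to 7 arrays gave -0.24 to 0.029 for Anxa3, -0.15 to 0.079 for Anxa4, -0.18 to 0.12 for Anxa7 and -0.045 to 0.30 for Anxa8. In the same fits Anxa1 stayed lower (-0.43 to -0.18), and Anxa5 (0.12 to 0.36) and Anxa6 (0.19 to 0.37) stayed higher. The cause was not tested. Anxa8 has no value under the filter at the 50th percentile. The shift of Anxa5 minus Anxa1, recomputed after seeing the data, lay between 0.53 and 0.64 as each array was left out, and was 0.48 without both arrays named above. Since every knockout array lay above every wild-type array, leaving arrays out could not reverse this shift. The largest shift of the median difference of all rows under an alternative was 0.025. In 20 checks for 1 array far from the other 3 of its genotype, 0 found one. These checks covered the 7 annexins and the 3 differences without overlap. With 4 values each they find only a very large gap, and they do not judge an array over all rows, where wild type replicate 4 stood apart.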
